A study of Mus musculus with 11 samples.

Results

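The protocadherin genes were taken as every row of the deposited expression matrix whose gene identifier maps to a symbol beginning with Pcdh, pseudogene symbols left out. This gave 70 genes of 77179 gene identifiers in all. They comprised 14 identifiers of the alpha cluster, 22 genes of the beta cluster, 22 of the gamma cluster and 12 non-clustered genes. Levels are in TPM, transcript abundance scaled for length and for the library total, and 1 TPM or more in 2 or more of the 11 libraries was reached by 65 of them: 13 alpha, 19 beta, 21 gamma and 12 non-clustered. The same filter was passed by 19008 genes over the whole matrix. Pcdha8, Pcdhb1, Pcdhb2, Pcdhb21 and Pcdhgb8 did not pass it. Just outside the threshold, Pcdha8 peaked at 0.849 TPM and Pcdhb21 at 0.844 TPM, both in input. Just inside it, Pcdhb16 had 0.479 to 0.967 TPM in the pull-down libraries and 1.25 TPM in each input library.

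Protocadherins are adhesion proteins of the cadherin superfamily. In the clustered genes, a neuron chooses among alternative first exons, each with its own promoter, and the homophilic binding of the encoded proteins lets its branches tell self from non-self. In the alpha and gamma clusters the chosen variable exon is spliced to constant exons shared by the whole cluster, whereas beta genes are single-exon genes. The 5 C-type genes at the ends of the alpha and gamma clusters are chosen less randomly than the others. The non-clustered delta protocadherins (delta-1 and delta-2, which differ in their cytoplasmic tails) have their own promoters and are expressed in regional and layer patterns in the developing cortex.

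The libraries came from NEX-RiboTag mice, in which Cre made from Neurod6 (NEX), a gene of postmitotic pyramidal neurons, switches on the ribosomal protein Rpl10a fused to eGFP. Cortex and hippocampus were processed together, ribosomes were captured with anti-GFP beads, and polyadenylated RNA was sequenced from the pull-down (IP) and from whole lysate (input). There were 3 IP libraries each at postnatal day 7 (P7), P14 and P21, all of genotype NEX-Cre;Rpl10aeGFP/eGFP and called biological replicates in the labels. The 2 input libraries were both P7, replicate 1 with NEX-Cre;Rpl10aeGFP/eGFP and replicate 2 with Rpl10aeGFP/eGFP and no Cre, so that every group carried the homozygous reporter allele, and no input of P14 or P21 entered the comparisons.

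In each library 15154 to 17793 genes reached 1 TPM, and libraries of the same group correlated at r = 0.988 to 0.994 across genes on the log2 scale. Rpl10a was higher in every IP library (2149 to 3814 TPM) than in input (487 to 996 TPM). Neurod6 had 144 to 168 TPM in P7 IP and 89.1 and 135 TPM in P7 input, whereas 8 excitatory neuron markers summed to 1117 to 1350 TPM in P7 IP and 1106 to 1226 TPM in P7 input, ranges that overlap. Summed markers of other cell types were lower in P7 IP than in P7 input, at 84.0 to 97.2 TPM against 875 to 1010 TPM for 10 inhibitory neuron genes and at 152 to 212 TPM against 3167 to 3498 TPM for 9 astrocyte genes. They were not constant over age in the IP: 7 oligodendrocyte genes summed to 32.2 to 36.1 TPM at P7, 300.0 to 406 TPM at P14 and 504 to 723 TPM at P21, and the astrocyte genes to 359 to 427 TPM at P14 and 486 to 637 TPM at P21. The part of these cells in the results below was not tested. In bulk RNA, fewer cells of a type and less RNA per cell cannot be told apart.

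Changes were tested with limma on log2(TPM + 1) across all 19008 genes, with Benjamini-Hochberg adjusted p below 0.05 as the call, and each change is followed by its standard error (SE). This scale understates the change of genes near 1 TPM. In the RefSeq annotation (GRCm38.p6), 13 of 13 alpha symbols and 22 of 22 gamma symbols ended within 2 kb of their cluster's median end, against 0 of 22 beta genes. Reads from the shared constant exons belong to no single alpha or gamma gene, so the way they were divided among these genes, and with it the level of each alpha and gamma gene, is uncertain.

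Among the C-type genes, Pcdhgc3 and Pcdhgc5 moved in opposite directions with age. Pcdhgc3, whose protein promotes dendrite branching in cortical neurons of the mouse, had 26.8, 27.1 and 29.5 TPM in the P7 IP libraries, 9.69, 11.3 and 10.8 TPM at P14 and 5.84, 5.31 and 7.11 TPM at P21. The 3 ages did not overlap, and each later age lay below the one before. The change from P7 to P14 was -1.31 ± 0.10 on the log2 scale (limma adjusted p = 1.91e-06), that from P14 to P21 was -0.72 ± 0.10 (adjusted p = 0.000485), and P21 lay 2.03 ± 0.10 below P7, a log2 change of -2.03 (adjusted p = 4.08e-08).

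Pcdhgc5, whose protein binds GABA-A receptor subunits at synapses, had 11.5, 17.1 and 28.6 TPM at P7, 89.2, 84.2 and 92.8 TPM at P14 and 102, 82.9 and 106 TPM at P21. Every P14 and P21 library lay above every P7 library, while P14 and P21 overlapped. The rise at P14 over P7 was 2.25 ± 0.24 (limma adjusted p = 2.84e-05), the largest rise of any protocadherin in that comparison, whereas P21 minus P14 was 0.12 ± 0.24 (adjusted p = 0.764). P7 IP replicate 3 held the highest P7 level. The rise from P7 to P21 was 2.37 ± 0.24 (adjusted p = 1.07e-05), and over 20 alternative settings it ranged from 2.07 to 2.69, with its call kept in each.

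The ratio of Pcdhgc5 to Pcdhgc3 TPM was 0.429, 0.631 and 0.971 in the P7 IP libraries, 9.20, 7.43 and 8.61 at P14 and 17.4, 15.6 and 14.9 at P21. In input it was 0.458 and 0.412. Pcdhgc3 exceeded Pcdhgc5 in every P7 library and Pcdhgc5 exceeded Pcdhgc3 in every later one. By mean level among the 70 protocadherins, Pcdhgc3 ranked 3 at P7, 10 at P14 and 11 at P21, and Pcdhgc5 ranked 7 at P7 and 2 at both P14 and P21.

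Pcdhgc4, the C-type gene that supports the survival of cortical interneurons in mice, was the most abundant protocadherin at each age and in input. It had 220.0, 236 and 175 TPM at P7, 302, 302 and 274 TPM at P14 and 252, 239.9 and 236 TPM at P21. The P14 libraries lay above those of the other ages. It rose by 0.48 ± 0.10 at P14 over P7 (limma adjusted p = 0.00175), and P21 minus P14 was -0.27 ± 0.10, not called (adjusted p = 0.0618), although it was called without P7 IP replicate 3 (adjusted p = 0.00815) or P7 IP replicate 2 (adjusted p = 0.0413). A fit of the P14 and P21 libraries alone also called it (adjusted p = 0.0159), as did a filter on the mean at 5 TPM (adjusted p = 0.0414).

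The alpha C-type genes differed from each other. Pcdhac1 had 1.51, 2.11 and 2.07 TPM at P7, 3.17, 3.21 and 3.28 TPM at P14 and 2.08, 2.08 and 2.71 TPM at P21, so that P14 stood above both other ages. It rose by 0.55 ± 0.12 at P14 over P7 (limma adjusted p = 0.00366). Its change of -0.36 ± 0.12 from P14 to P21 was at the threshold (adjusted p = 0.0497) and kept its call in 8 of 19 alternatives. It was lost, for example, without P14 IP replicate 3 (-0.35, adjusted p = 0.119) and without P21 IP replicate 2 (-0.32, adjusted p = 0.146).

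Pcdhac2, required for the even spread of serotonergic axons in the mouse brain, had 17.9, 20.0 and 23.3 TPM at P7, 18.3, 18.2 and 21.8 TPM at P14 and 14.6, 12.1 and 15.8 TPM at P21. P7 and P14 overlapped and P21 lay below both. P21 minus P7 was -0.49 ± 0.12 (limma adjusted p = 0.0036) and P21 minus P14 was -0.43 ± 0.12 (adjusted p = 0.0191). The second call was lost without P14 IP replicate 3 (adjusted p = 0.075) or P21 IP replicate 2 (adjusted p = 0.0709), or without a filter (adjusted p = 0.06).

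**Figure D1:**
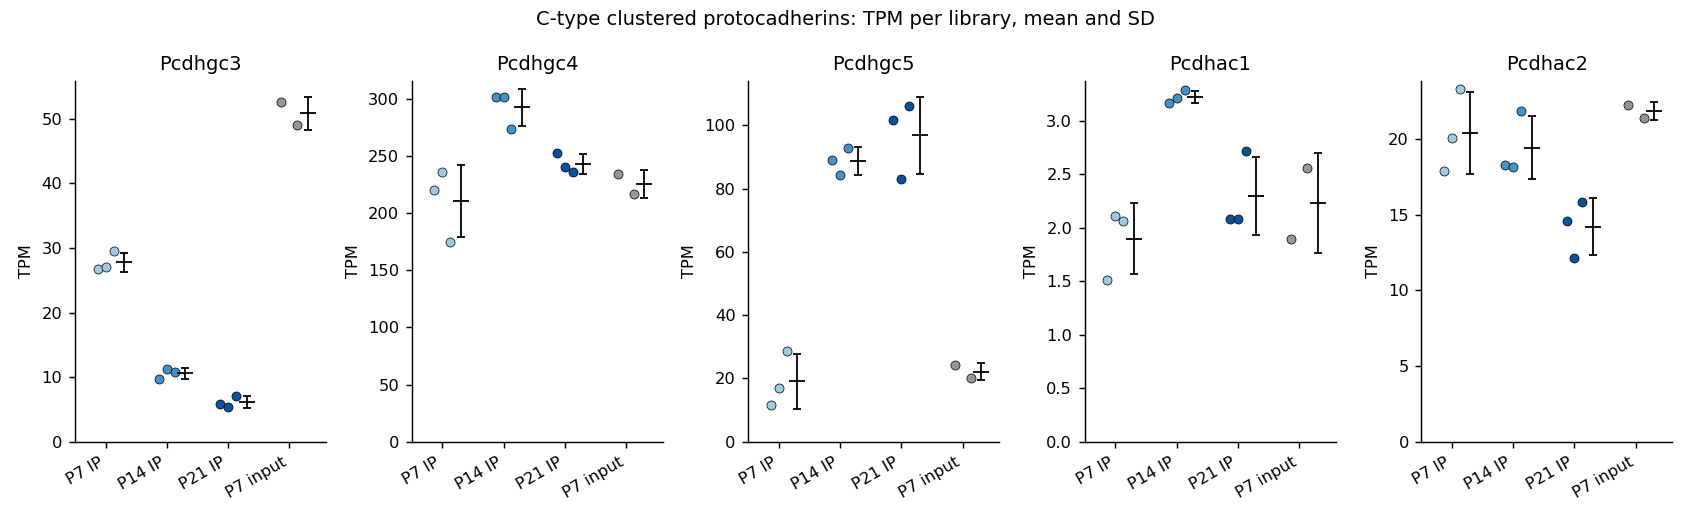
TPM of the 5 C-type protocadherins in each library (points; P7, P14 and P21 IP, then P7 input), with the mean and SD beside them (n = 3 per IP group, n = 2 for input); each panel has its own linear axis from 0. Pcdhgc3 falls to 5.31 to 7.11 TPM at P21 and Pcdhgc5 reaches 82.9 to 106 TPM there, while Pcdhgc4 peaks at P14.

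These changes altered the make-up of the gamma cluster. Pcdhgc5 supplied 3.73 to 9.50% of summed gamma TPM at P7, 19.5 to 22.1% at P14 and 23.4 to 27.7% at P21, and Pcdhgc3 8.06 to 9.78% at P7, 2.23 to 2.63% at P14 and 1.50 to 1.86% at P21. Pcdhgc4 supplied 58.0 to 71.5% at P7 and 61.5 to 67.7% at P21, ranges that overlap. The gamma A and gamma B genes together summed to 49.6, 56.0 and 68.5 TPM at P7, 33.7, 33.5 and 43.2 TPM at P14 and 29.4, 26.1 and 34.6 TPM at P21. The highest of these at each age was replicate 3.

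**Figure D2:**
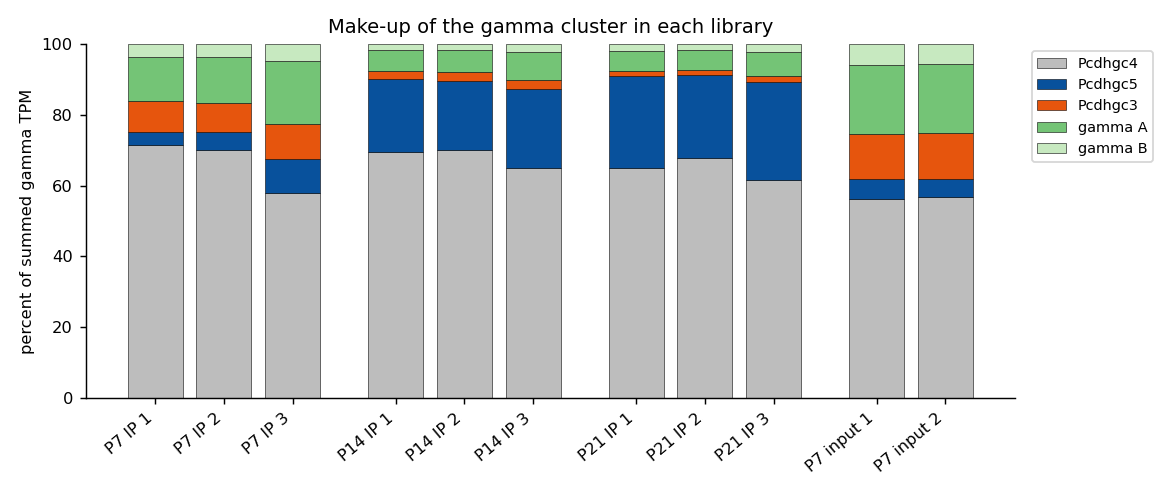
Percent of summed gamma cluster TPM taken by Pcdhgc4, Pcdhgc5, Pcdhgc3 and the gamma A and gamma B genes in each of the 11 libraries (stacked bars from 0 to 100). The Pcdhgc5 band is 3.73 to 9.50% in P7 IP, 19.5 to 22.1% in P14 IP and 23.4 to 27.7% in P21 IP, with 5.28 to 5.80% in P7 input.

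The 5 C-type genes held 56.5 to 63.1% of all clustered protocadherin TPM at P7, 73.7 to 77.3% at P14 and 78.0 to 80.2% at P21, with 56.5 and 56.8% in input. The alpha cluster with its C-type genes summed to 96.1, 104 and 113 TPM at P7, 77.7, 82.3 and 86.0 TPM at P14 and 51.2, 46.3 and 56.5 TPM at P21. No library of one age reached the range of another. The beta cluster summed to 36.2 to 42.5 TPM at P7, 33.8 to 39.2 TPM at P14 and 26.8 to 31.2 TPM at P21, where P7 and P14 overlapped and P21 lay below both.

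**Figure D3:**
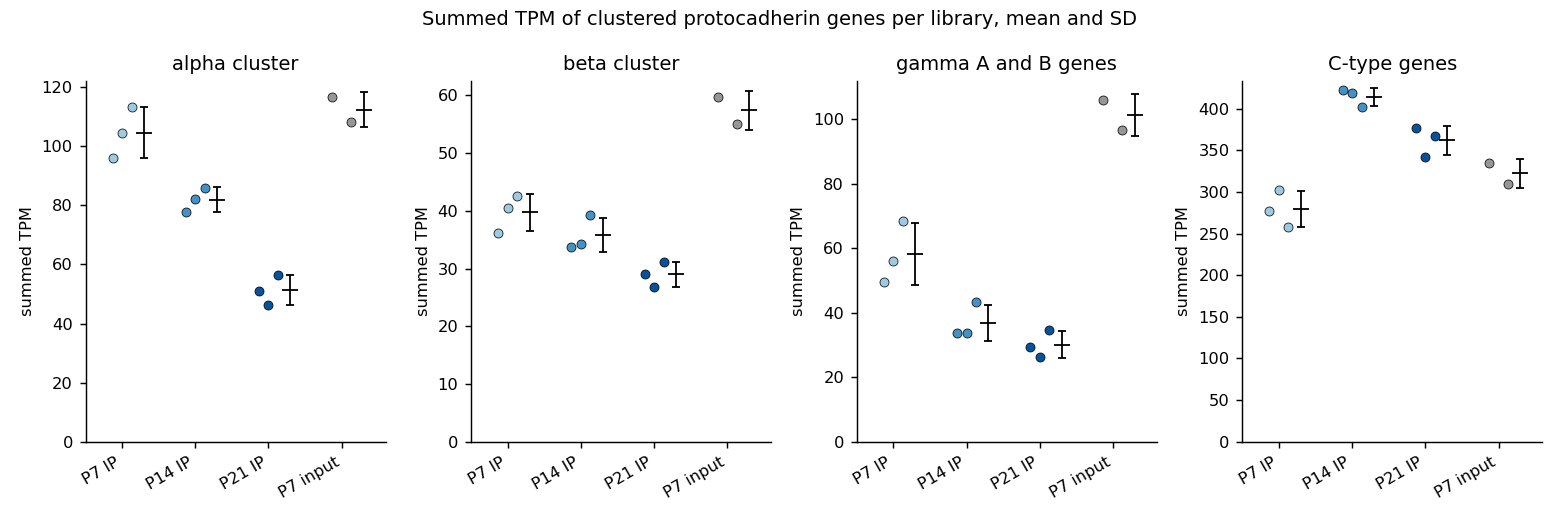
Summed TPM of the alpha cluster (C-type genes included), the beta cluster, the gamma A and B genes and the 5 C-type genes in each library (points), with mean and SD (n = 3 per IP group, n = 2 for input); each linear axis starts at 0. The alpha sums of the 3 ages are separate, and the C-type sum is 402 to 422 TPM at P14, above the other groups.

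Among the 65 protocadherins tested, 6 rose and 25 fell at P14 relative to P7, where 26.7% of all genes tested rose and 22.8% fell (limma adjusted p below 0.05). The median change was -0.23 for the protocadherins and 0.03 for all genes. At P21 relative to P14, 0 rose and 21 fell, against 8.53% and 19.7% of all genes, and 2 were higher at an unadjusted limma p below 0.05. The median was -0.23 against -0.08 for all genes. At P21 relative to P7, 3 rose and 38 fell, against 27.3% and 32.6% of all genes, and the median was -0.41 against -0.04 for all genes. The 3 risers were Pcdhgc5, Pcdh1 and Pcdh20. The second weekly step lay above the first for 1 gene and below it for 5 (limma test of the difference), against 7.46% and 16.8% of all genes, with Pcdhgc3 above and Pcdhgc5, Pcdhgc4, Pcdhac1, Pcdha4 and Pcdh9 below. In this fit of all 11 libraries both shares of the protocadherins were under those of all genes.

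These 3 comparisons share IP libraries and are not independent of each other. P7 IP replicate 3 held the highest of the 3 P7 values for 50 of the 65 protocadherins (76.9%), against 38.1% of all genes tested. Without it, 7 rose and 16 fell at P14 relative to P7, and 4 rose and 33 fell at P21 relative to P7, while 10 in place of 5 second steps lay below the first. Of all 19008 genes tested, 4807 then rose and 4006 fell at P14, and 4980 rose and 5811 fell at P21. The second step lay below the first for 3238 of them. The share of protocadherins that fell at P14 was then near that of all genes, and so was the share with a lower second step. The count that fell at P21 relative to P14 was 13 without P14 IP replicate 2, 12 without P14 IP replicate 3, 12 without P21 IP replicate 1 and 10 without P21 IP replicate 2. Over all genes tested these counts were, in the same order, 2717, 2685, 2849 and 2720. The share of protocadherins stayed above that of all genes in each, but was near it without P21 IP replicate 2. With median-of-ratios scaling 2 rose and 15 fell in that comparison, against 2732 and 2273 of all 19008 genes tested. The share of protocadherins that rose then lay below that of all genes, and the share that fell lay above it.

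**Figure D4:**
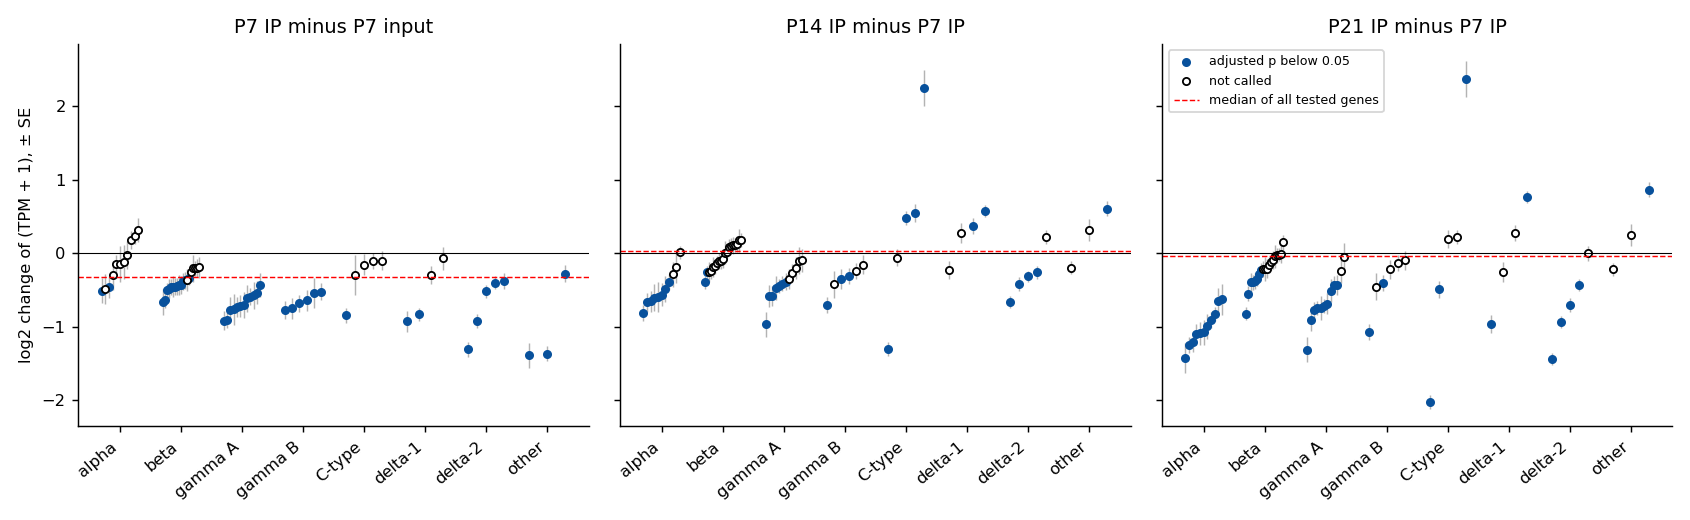
Change on the log2(TPM + 1) scale ± SE of the 65 protocadherins by class, for 3 comparisons, namely P7 IP with P7 input on the left, P14 IP with P7 IP and P21 IP with P7 IP; each point is a gene, filled where limma's adjusted p is below 0.05, and the dashed line is the median of all genes tested. At P21 the 11 alpha genes lie between -1.43 and -0.63, while Pcdhgc5 stands at 2.37; in the IP minus input panel the side of zero on which the alpha and beta medians lie depends on the scaling.

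The 11 alpha genes outside the C-type fell without exception between P7 and P21, where 32.6% of all genes did. They include 2 identifiers of the symbol Pcdha11. Constant-exon reads were divided among the genes of the alpha and the gamma cluster, so changes within each may not be independent. The median change of the 11 was -1.08, and without P7 IP replicate 3 the count that fell was 10. At P14 relative to P7, 8 of the 11 had fallen, against 22.8% of all genes, and 5 without P7 IP replicate 3. At P21 relative to P14, 8 fell, against 19.7% of all genes, and 5 without P14 IP replicate 2, P21 IP replicate 1 or P21 IP replicate 2. Pcdha9 had 9.58, 9.33 and 10.5 TPM at P7, 5.02, 5.99 and 4.40 TPM at P14 and 3.26, 3.69 and 3.65 TPM at P21. The ages did not overlap. It had changed by -0.82 ± 0.11 at P14 (limma adjusted p = 0.000118) and by -1.25 ± 0.11 at P21 relative to P7 (adjusted p = 3e-06).

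Pcdha4, the most abundant alpha gene outside the C-type, had 16.5, 18.1 and 15.3 TPM at P7, 17.1, 18.0 and 15.3 TPM at P14 and 8.80, 8.01 and 10.1 TPM at P21. Its P7 and P14 levels overlapped, with a change of 0.01 ± 0.09 (limma adjusted p = 0.935), and P21 lay below both. It fell by 0.84 ± 0.09 between P14 and P21, a log2 change of -0.84 (adjusted p = 0.00017). The step from P14 to P21 differed from the step from P7 to P14 by -0.85 (limma test of the difference, adjusted p = 0.00405).

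Pcdha3 likewise showed no called change from P7 (8.26, 8.27 and 9.40 TPM) to P14 (4.96, 7.91 and 8.23 TPM), at -0.29 ± 0.17 (limma adjusted p = 0.193), before P21 levels of 3.26, 4.03 and 3.43 TPM. Its P21 minus P14 change was -0.79 ± 0.17 (adjusted p = 0.00695), and its 2 steps were not shown to differ (adjusted p = 0.262), except without P14 IP replicate 1 (adjusted p = 0.0355). Of 2 identifiers that map to the symbol Pcdha11, ENSMUSG00000102206 had 4.93, 7.88 and 8.22 TPM at P7, 3.25, 4.95 and 4.53 TPM at P14 and 2.04, 1.35 and 2.51 TPM at P21. It had the largest alpha decrease between P7 and P21, at -1.43 ± 0.21 (adjusted p = 0.000146). Its P21 minus P14 change of -0.83 ± 0.21 (adjusted p = 0.014) lost its call without P14 IP replicate 2 (-0.73, adjusted p = 0.0545) or P21 IP replicate 2 (-0.67, adjusted p = 0.0552). The other identifier, ENSMUSG00000007440, described because it shares the symbol, changed by -0.65 ± 0.18 between P7 and P21 (adjusted p = 0.00883).

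Of the 19 beta genes tested, 8 fell and 0 rose between P7 and P21 in the limma fit, with 0 higher at an unadjusted p below 0.05 too, and a median change of -0.22. Of all genes 27.3% rose and 32.6% fell. Without P7 IP replicate 3 or P21 IP replicate 2 the count of beta genes that fell was 5. Of all 19008 genes tested, 5811 and 5643 then fell, so the beta share lay below that of all genes. Pcdhb7 and Pcdhb20 had fallen at P14, against 22.8% of all genes. The count was 1 without P7 IP replicate 2, P7 IP replicate 3 or P14 IP replicate 1. Pcdhb7 fell at P21 relative to P14, against 19.7% of all genes. There the count was 3 without P7 IP replicate 1 and 2 without P14 IP replicate 1. At both steps the share of beta genes that fell lay below that of all genes. Pcdhb7 and Pcdhb20 are named here after their values were seen. Pcdhb7 had 4.73, 5.03 and 4.44 TPM at P7, 3.13, 3.40 and 3.54 TPM at P14 and 2.23, 1.97 and 2.53 TPM at P21. Its ages were separate, and its change between P7 and P21 was -0.82 ± 0.09 (limma adjusted p = 1.52e-05). Mean levels of the 19 beta genes ran from 0.669 to 5.57 TPM at P7 and from 0.437 to 4.13 TPM at P21, so most lay near the filter.

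Between P7 and P21, 10 of 12 gamma A genes fell, with a median change of -0.70, as did 2 of 6 gamma B genes, with a median of -0.31. The share of all genes that fell was 32.6%, which the gamma B share lay near. By P14, 7 gamma A and 3 gamma B genes had fallen, against 22.8% of all genes, which became 5 and 1 without P7 IP replicate 3. The gamma B count was also 1 without P7 IP replicate 2, P14 IP replicate 1 or P14 IP replicate 2. Pcdhga11, the most abundant of them, had 9.42, 11.4 and 15.0 TPM at P7, 5.17, 4.62 and 6.94 TPM at P14 and 4.04, 3.59 and 4.81 TPM at P21. Each P7 library lay above every later one, while P14 and P21 overlapped. The change was -0.97 ± 0.17 at P14 (limma adjusted p = 0.000727) and -1.32 ± 0.17 at P21 relative to P7 (adjusted p = 5.5e-05).

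Pcdhgb6 had 3.67, 4.04 and 4.58 TPM at P7, 1.79, 2.13 and 2.47 TPM at P14 and 1.53, 1.33 and 1.37 TPM at P21, without overlap between ages. It was the gamma B gene with the largest decrease, at -0.70 ± 0.11 at P14 (limma adjusted p = 0.000315) and -1.08 ± 0.11 at P21 relative to P7 (adjusted p = 8.54e-06). The other gamma B gene that fell, Pcdhgb7, is named after its values were seen and changed by -0.41 ± 0.11 (adjusted p = 0.00714).

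Across the 65 genes, 17 fell at both weekly steps without overlap between adjacent ages, where 14.1% of all genes tested did so, and 2 rose at both, against 8.76%. Those that fell were 6 alpha genes, 2 beta genes, 4 gamma A genes, 1 gamma B gene, Pcdhgc3 and the delta-2 genes Pcdh17, Pcdh18 and Pcdh19. Those that rose were Pcdh1 and Pcdh20.

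The delta-2 genes Pcdh17, Pcdh18 and Pcdh19, together with Pcdh20, are shown by the stretch from 250 bases before to 50 bases after the RefSeq transcription start (GRCm38.p6), because they changed stepwise and have a window that could be shown from the RefSeq promoter table. Pcdh1, the other gene that rose at both steps, is not shown. Pcdh20 is thus the only rising gene here, and falling and rising genes cannot be compared as groups. The submitters' processing notes name mm39 as the build, so the coordinates below belong to the RefSeq table and not to the expression files. The windows are chr14:84443313-84443612 on the plus strand for Pcdh17, chr3:49757267-49757566 on the minus strand for Pcdh18, chrX:133688944-133689243 on the minus strand for Pcdh19 and chr14:88471347-88471646 on the minus strand for Pcdh20. Each is printed along the gene's own strand, and capitals mark matches, on either strand, to the GC box GGGCGG and to CCAAT, including its 8-letter form AGCCAATC, which contains CCAAT.
Pcdh17: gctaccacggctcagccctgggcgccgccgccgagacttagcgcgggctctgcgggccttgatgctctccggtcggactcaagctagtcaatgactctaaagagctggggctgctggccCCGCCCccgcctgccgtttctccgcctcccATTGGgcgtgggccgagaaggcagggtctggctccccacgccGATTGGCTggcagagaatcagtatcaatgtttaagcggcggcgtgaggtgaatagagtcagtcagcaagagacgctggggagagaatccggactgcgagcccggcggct
Pcdh18: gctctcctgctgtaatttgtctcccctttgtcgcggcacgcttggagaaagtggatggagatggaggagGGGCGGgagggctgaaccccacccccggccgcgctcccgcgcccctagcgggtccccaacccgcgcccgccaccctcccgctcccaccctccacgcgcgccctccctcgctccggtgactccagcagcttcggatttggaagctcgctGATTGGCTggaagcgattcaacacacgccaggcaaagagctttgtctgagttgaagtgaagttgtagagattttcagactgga
Pcdh19: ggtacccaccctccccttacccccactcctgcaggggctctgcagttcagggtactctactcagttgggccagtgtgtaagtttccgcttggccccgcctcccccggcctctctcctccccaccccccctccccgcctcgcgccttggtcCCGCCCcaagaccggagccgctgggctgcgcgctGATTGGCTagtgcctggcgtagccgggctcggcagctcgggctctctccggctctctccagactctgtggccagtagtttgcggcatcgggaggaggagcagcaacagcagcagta
Pcdh20: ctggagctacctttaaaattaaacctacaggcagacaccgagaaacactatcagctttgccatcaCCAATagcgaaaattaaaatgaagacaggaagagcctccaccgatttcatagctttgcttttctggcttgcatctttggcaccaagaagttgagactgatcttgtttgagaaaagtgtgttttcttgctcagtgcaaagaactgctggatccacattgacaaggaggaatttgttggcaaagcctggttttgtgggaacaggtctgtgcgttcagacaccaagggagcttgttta

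The 3 falling genes each held 1 match to GGGCGG, which 35.7% of 32851 RefSeq promoter windows hold, and 1 match to AGCCAATC, which 3.84% hold. Pcdh20 had no match to either, and 1 match to CCAAT, which 37.4% of windows hold. The CCAAT forms were searched after these sequences had been seen. TGACGTCA, CAGATG and TATAAA, also searched on both strands, occurred in none of the 4 windows and in 1.79%, 17.2% and 13.6% of all windows. GC content was 65%, 63% and 67.7% in Pcdh17, Pcdh18 and Pcdh19, and 43.7% in Pcdh20, beside a median of 52.7% over all windows. A match describes the letters and no binding was measured.

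Pcdh19, the X-linked gene mutated in a female-limited epilepsy of humans, had 11.4, 11.5 and 13.7 TPM at P7, 6.83, 7.29 and 7.78 TPM at P14 and 3.87, 3.90 and 3.72 TPM at P21. The ages were separate. It changed by -0.67 ± 0.08 at P14 relative to P7 (limma adjusted p = 6.19e-05), by -0.78 ± 0.08 at P21 relative to P14 (adjusted p = 0.000126) and by -1.45 ± 0.08 over both steps (adjusted p = 1.22e-07). The 2 steps were not shown to differ (adjusted p = 0.609).

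Pcdh17, a protein of presynaptic and postsynaptic contacts in the corticobasal circuits of mice, had 8.75, 8.40 and 10.0 TPM at P7, 6.94, 7.18 and 8.00 TPM at P14 and 4.33, 3.93 and 4.43 TPM at P21. Its libraries were ordered by age without overlap. It changed by -0.94 ± 0.08 between P7 and P21 (limma adjusted p = 3.6e-06), and by -0.68 ± 0.08 of this between P14 and P21 (adjusted p = 0.000332). The first step, -0.26 ± 0.08 (adjusted p = 0.024), did not pass once 1 of 3 libraries was dropped: the limma adjusted p was 0.0883 without P7 IP replicate 3, 0.0835 without P14 IP replicate 1 and 0.0706 without P14 IP replicate 2. In a fit of the P7 and P14 IP libraries alone it was 0.0546.

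Pcdh18 was low in the pull-down, with 1.05, 1.00 and 0.996 TPM at P7, 0.473, 0.429 and 0.617 TPM at P14 and 0.199, 0.238 and 0.260 TPM at P21, against 4.27 and 3.74 TPM in input. The ages did not overlap, and its change between P7 and P21 was -0.71 ± 0.09 (limma adjusted p = 6.41e-05). Pcdh8, a synaptic protocadherin induced by activity, had 14.6, 12.8 and 14.0 TPM at P7, 10.4, 11.8 and 10.5 TPM at P14 and 11.0, 9.58 and 9.38 TPM at P21. Both later ages lay below P7 and overlapped each other; P21 minus P7 was -0.43 ± 0.08 (adjusted p = 0.000787).

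Pcdh10, which takes part in activity-driven synapse elimination, was the delta-2 gene with no called age change. It had 24.5, 26.3 and 30.1 TPM at P7, 27.8, 34.8 and 32.3 TPM at P14 and 27.6, 24.3 and 28.7 TPM at P21. The 3 ages overlapped. P21 minus P7 was -0.00 ± 0.10 (limma adjusted p = 0.979), and P14 minus P7 was 0.22 ± 0.10 (adjusted p = 0.0863), which passed at 0.30 (adjusted p = 0.0323) when P7 IP replicate 3 was dropped and at 0.31 (adjusted p = 0.0266) when P14 IP replicate 1 was.

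Pcdh1, a delta-1 gene and the second most abundant protocadherin at P7, had 29.3, 29.3 and 36.8 TPM at P7, 46.3, 46.5 and 50.2 TPM at P14 and 53.4, 52.8 and 56.8 TPM at P21. Each later age lay above the one before. It rose by 0.58 ± 0.08 at P14 (limma adjusted p = 0.000197) and by 0.76 ± 0.08 at P21 relative to P7 (adjusted p = 1.55e-05). P21 minus P14 was 0.18 ± 0.08, not called (adjusted p = 0.125), and was called without P7 IP replicate 3 (adjusted p = 0.0242) and in a fit of the P14 and P21 libraries alone (adjusted p = 0.0428). It was also called, at 0.30 (adjusted p = 0.015), under median-of-ratios scaling and, at 0.26 (adjusted p = 0.0317), under quantile normalisation.

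Pcdh20, which belongs to neither delta group here, had 3.56, 3.50 and 4.55 TPM at P7, 6.85, 6.36 and 5.90 TPM at P14 and 8.17, 7.41 and 7.91 TPM at P21. Its ages were ordered upward without overlap. It rose by 0.60 ± 0.10 at P14 (limma adjusted p = 0.000559) and by 0.86 ± 0.10 at P21 relative to P7 (adjusted p = 2.65e-05).

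Pcdh9, a delta-1 gene, had 20.1, 26.0 and 27.5 TPM at P7, 28.0, 28.5 and 32.5 TPM at P14 and 19.0, 17.5 and 24.8 TPM at P21. Each P14 library lay above those of the other ages, but P14 minus P7 was 0.27, not called (limma adjusted p = 0.127) in the main fit or any of 20 alternatives. P21 minus P14 was -0.53 ± 0.14 (adjusted p = 0.0159), a call lost without P14 IP replicate 3 (adjusted p = 0.0618), P21 IP replicate 1 (adjusted p = 0.0564) or P21 IP replicate 2 (adjusted p = 0.0628), or without a filter (adjusted p = 0.0549). P21 minus P7 was -0.26, not called (adjusted p = 0.13), except without P7 IP replicate 1 (adjusted p = 0.0272) or P21 IP replicate 3 (adjusted p = 0.0193).

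Pcdh7, which binds protein phosphatase 1, had 12.2, 15.4 and 16.9 TPM at P7, 18.8, 18.6 and 20.7 TPM at P14 and 17.7, 16.2 and 20.3 TPM at P21. Every P14 library lay above P7, and P21 overlapped both. It rose by 0.37 ± 0.11 at P14 (limma adjusted p = 0.0178). Dropping P7 IP replicate 1 left 0.25 (adjusted p = 0.056), and dropping P14 IP replicate 3 left 0.33 (adjusted p = 0.0617), neither of them called, and without a filter the adjusted p was 0.0523. Pcdh11x, the delta-1 gene on the X chromosome, had 2.38, 2.85 and 3.54 TPM at P7, 1.99, 2.26 and 2.72 TPM at P14 and 0.892, 1.04 and 1.07 TPM at P21. Its P21 libraries lay below all others, with a change of -0.73 ± 0.12 relative to P14 (adjusted p = 0.00187) and -0.96 ± 0.12 relative to P7 (adjusted p = 5.65e-05).

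**Figure D5:**
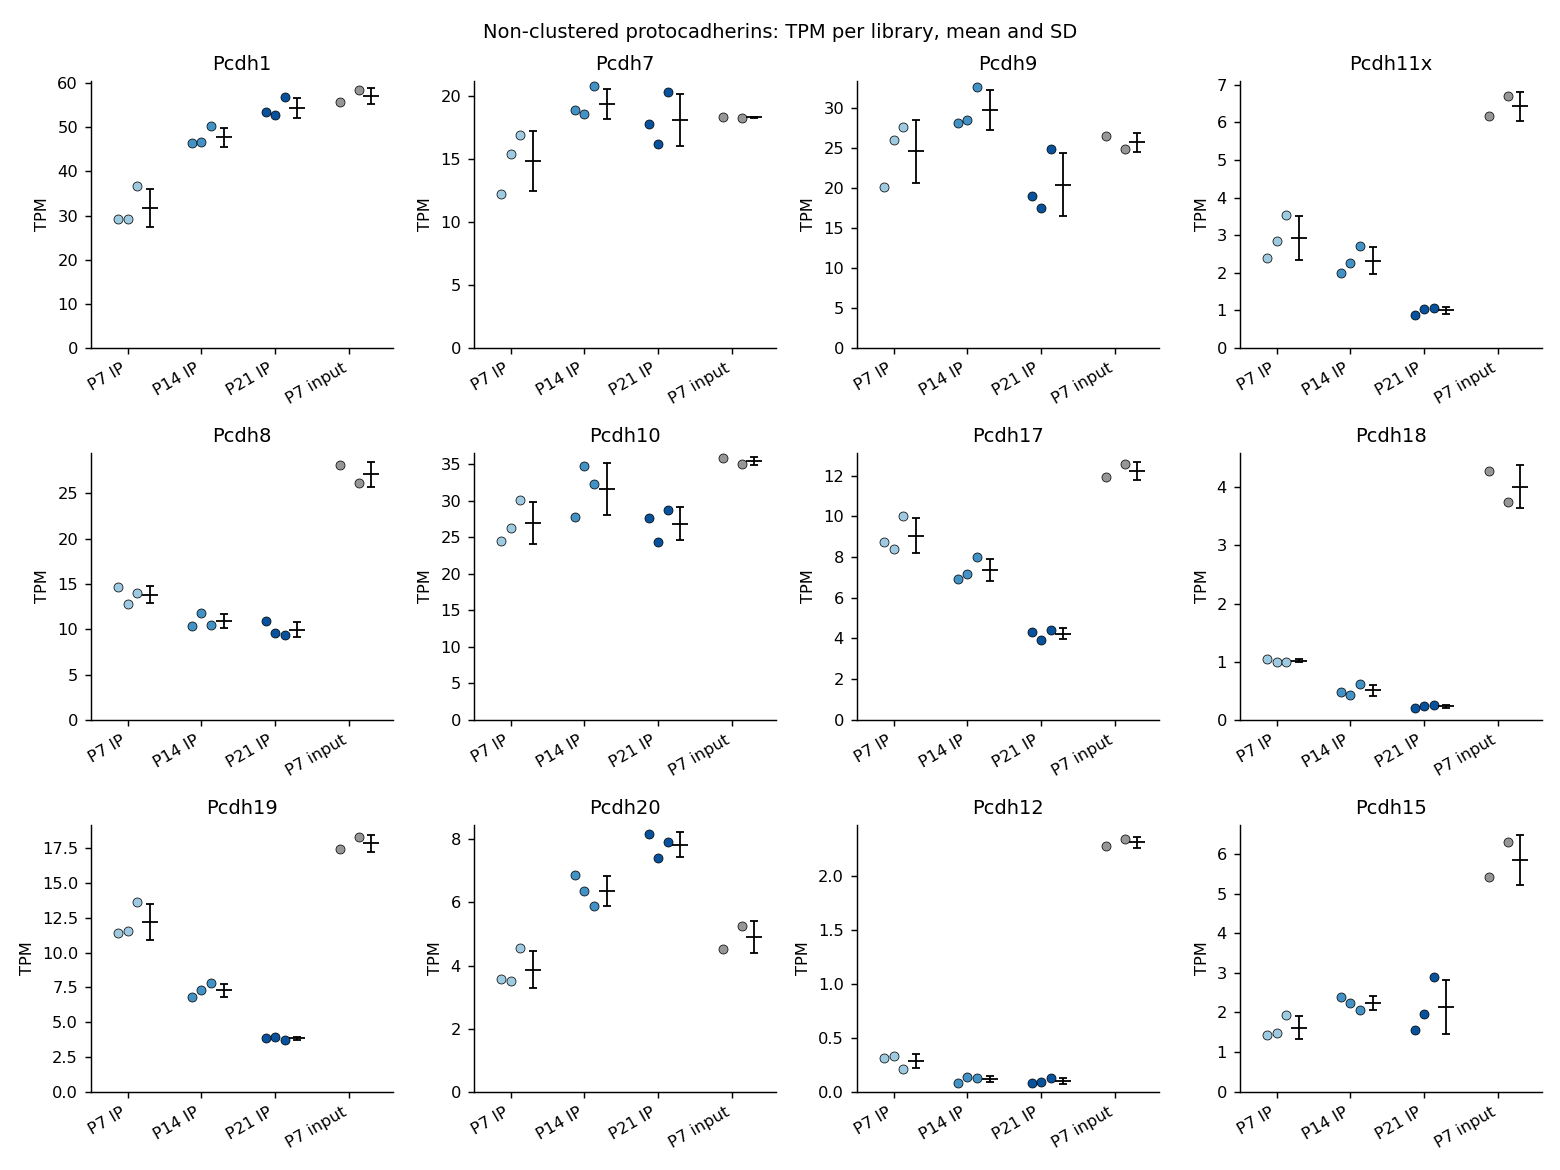
TPM of the 12 non-clustered protocadherins in each library (points; P7, P14 and P21 IP, then P7 input) with mean and SD (n = 3 per IP group, n = 2 for input); each panel has its own linear axis from 0. Pcdh17, Pcdh18 and Pcdh19 step down and Pcdh1 and Pcdh20 step up with age, while Pcdh12 is 0.0807 to 0.332 TPM in IP and 2.28 to 2.35 TPM in input.

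P7 IP and P7 input compare RNA on tagged ribosomes with that of the whole tissue at one age. Of the 65 protocadherins, 0 were called higher and 44 lower in IP, against 18.6% and 51.1% of all genes tested (limma adjusted p below 0.05). At an unadjusted p below 0.05 1 were higher. The median change was -0.46, beside -0.33 for all genes. These counts depend on how the libraries are scaled to each other. Median-of-ratios scaling, which moves the median of all genes by 0.33, gave 5 higher and 17 lower. Over all genes tested it gave 6250 higher and 6145 lower. Quantile normalisation, which moves the median by 0.36, gave 10 higher and 10 lower, against 6256 and 6025 over all genes tested. Under both scalings the shares of protocadherins called higher and lower each lay below those of all genes. Of the 65 genes, 8 needed the input libraries to pass the filter, and each of the 8 was among those called lower; the 2 of these that never reached 1 TPM in IP, Pcdh12 and Pcdhb16, had to lie lower there. Of the 57 that passed on IP libraries, 36 were lower.

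With the deposited scaling, 51.1% of all genes were lower in IP. By class, 12 of 12 gamma A genes and 6 of 6 gamma B genes, 2 of which needed input to pass, were lower, with medians of -0.71 and -0.67. They became 5 and 4 under median-of-ratios scaling and 2 and 0 under quantile normalisation, though the gamma A medians (-0.40 and -0.13) and gamma B medians (-0.36 and -0.09) stayed below 0. Alpha genes had a median of -0.15, with 2 of 11 lower, a count of 0 without P7 IP replicate 1 and of 1 without either input library. Relative to the median of all genes they stood higher, and their median changed sign to 0.18 and 0.45 under these 2 scalings. The beta median was -0.43, with 13 of 19 lower, and was -0.14 and 0.12 under the other scalings. Of these 19 genes, 5 needed input to pass and were all lower; of the other 14, 8 were lower, with a median of -0.37. Without input replicate 1, 8 of the 19 were lower.

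Pcdhgc3 had 26.8, 27.1 and 29.5 TPM in IP, against 52.7 and 49.0 TPM in input, a change of -0.85 ± 0.11 (limma adjusted p = 3.93e-05) that kept its call in 19 of 19 alternatives, with -0.45 as the smallest. Pcdhgc4 (234 and 217 TPM in input) and Pcdhac2 (22.3 and 21.4 TPM) changed by -0.11 and -0.10, not called. Under median-of-ratios scaling both were called higher, at 0.30 (limma adjusted p = 0.0435) and 0.29 (adjusted p = 0.0463). Pcdhgc4 was called lower under quantile normalisation, at -0.41 (adjusted p = 0.0041), so the direction of its call depended on the scaling. Pcdhgc5 had 24.1 and 20.2 TPM in input, within the P7 IP range. Its change of -0.29 ± 0.27 was not called (adjusted p = 0.359), but without P7 IP replicate 3, its highest P7 IP library, it was -0.62 (adjusted p = 0.0098), and over 19 alternatives it ran from -0.62 to 0.10. Pcdhac1 (1.90 and 2.56 TPM in input) overlapped between IP and input, at -0.16 ± 0.14 (adjusted p = 0.336), and had the opposite sign, 0.37 (adjusted p = 0.0212), under quantile normalisation.

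The 4 lowest non-clustered ratios to input were those of Pcdh15, Pcdh12, Pcdh18 and Pcdh11x. Pcdh15, a tip-link protein of hair cells, had 1.42, 1.47 and 1.94 TPM in P7 IP, against 5.41 and 6.30 TPM in input, a change of -1.39 ± 0.17 (limma adjusted p = 2.81e-05). Pcdh12, an endothelial protocadherin, had 0.310, 0.332 and 0.212 TPM in P7 IP, against 2.28 and 2.35 TPM in input. It entered the fit through input alone, so its change of -1.37 is a description with no test. Beside these, 5 oligodendrocyte precursor markers summed to 13.7 to 17.1 TPM in P7 IP and 181 to 205 TPM in input, and 6 endothelial markers to 20.7 to 25.0 TPM in P7 IP and 146 to 148 TPM in input. Their part in the levels of Pcdh15 and Pcdh12 was not tested.

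Pcdh18 was lower in P7 IP, with a change of -1.31 ± 0.10 (limma adjusted p = 1.49e-06), and Pcdh11x by -0.93 ± 0.14 (adjusted p = 0.00014), with 6.16 and 6.69 TPM in input. Pcdh8 had 28.1 and 26.1 TPM in input and changed by -0.92 ± 0.09 (adjusted p = 6.43e-06), and Pcdh1 had 55.8 and 58.3 TPM there and changed by -0.83 ± 0.09 (adjusted p = 1.66e-05). These 4 genes and Pcdh15 kept their calls in each alternative that tested them. Pcdh19 (17.4 and 18.3 TPM in input, -0.52 ± 0.09, adjusted p = 0.000425) and Pcdh17 (11.9 and 12.6 TPM, -0.40 ± 0.09, adjusted p = 0.00302) lost theirs under both other scalings, where Pcdh17 was -0.02 and 0.12. Pcdh10, at 35.8 and 35.0 TPM in input, changed by -0.39 ± 0.11 (adjusted p = 0.00916), but by 0.01 under median-of-ratios scaling, and lost its call without input replicate 1 (adjusted p = 0.0523).

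Pcdh7 and Pcdh9 were not called between P7 IP and P7 input. Pcdh7 had 18.3 TPM in each input library and a change of -0.30 ± 0.13 (limma adjusted p = 0.0558), called without P7 IP replicate 3 (-0.39, adjusted p = 0.018) or P21 IP replicate 3 (adjusted p = 0.0458) or when the filter required 5 TPM on average (adjusted p = 0.0471), and took either sign over the alternatives (-0.39 to 0.14). Pcdh9 had 26.5 and 24.8 TPM in input, within its P7 IP range, and a change of -0.07 ± 0.15 (adjusted p = 0.692), which ran from -0.16 to 0.32 over the alternatives.

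Genes that act on the clusters or with the proteins were counted from lists. CTCF and cohesin loop the clustered promoters to their enhancers, and chromatin regulators silence the unchosen ones. Of 15 such genes tested, 3 rose and 6 fell between P7 and P21, shares near the 27.3% and 32.6% of all genes. Wiz, a zinc finger protein that binds with CTCF, changed by -1.07 ± 0.06 (limma adjusted p = 1.28e-07) and Setdb1, a histone H3 lysine methyltransferase, by -0.72 ± 0.06 (adjusted p = 2.9e-06), while the cohesin release factor Wapl rose by 0.33 ± 0.08 (adjusted p = 0.0029). Dnmt3a, a de novo DNA methyltransferase, rose by 0.66 ± 0.12 at P14 over P7 (adjusted p = 0.000789) and changed by -0.90 ± 0.12 at P21 relative to P14 (adjusted p = 0.000428). Ctcf itself, named here after its values were seen, changed by -0.28 ± 0.05 between P7 and P21 (adjusted p = 0.000587).

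Of 18 intracellular partners, 10 rose and 6 fell between P7 and P21, against 27.3% and 32.6% of all genes, so that the falling share was near that of all genes. Ptk2b, a kinase held in check by clustered protocadherins, rose by 1.69 ± 0.06 (limma adjusted p = 1.23e-08), and Marcks, an actin-binding protein of dendrites, changed by -1.21 ± 0.07 (adjusted p = 1.15e-07). Among 6 genes of protocadherin cleavage 0 rose (1 was higher at an unadjusted limma p below 0.05) and 2 fell, namely Aph1a (-0.31 ± 0.05, adjusted p = 0.000357), a subunit of gamma-secretase, and Adam10 (-0.28 ± 0.08, adjusted p = 0.01), the sheddase. The share that fell was near the 32.6% of all genes. With median-of-ratios scaling 1 rose and 2 fell, against 5808 and 5671 of all 19008 genes tested. Among 6 membrane partners 1 rose and 4 fell, among them the N-cadherin gene Cdh2 (-0.70 ± 0.07, adjusted p = 8.22e-06), whose protein is internalised with Pcdh8. The activity-induced genes, 10 in number, all rose between P7 and P21.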

How the data were processed

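RNA of 9 ribosome pull-down libraries (3 each at P7, P14 and P21) and 2 P7 input libraries was analysed. The authors deposited TPM values per gene identifier. Reads were processed with fastp 1.0.1, Salmon 1.10.0 and DESeq2 1.46.0 on mm39, per the submitters' processing notes; for the annotation release and strand setting the sources used here state nothing. Since TPM values do not hold the number of reads, library depth is unknown, and intervals for counting error could not be given.

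Symbols were found for 50886 of 77179 identifiers. The 19008 genes at 1 TPM or above in 2 or more libraries were tested with limma 3.58.1 (R 4.3.3, empirical Bayes with trend) on log2(TPM + 1), with all 11 libraries in 1 fit, no covariate and Benjamini-Hochberg adjustment over the 19008 genes. A call is an adjusted p below 0.05. Sums, shares and ratios were taken over TPM as deposited. The main fit did not pair libraries by replicate number. Deviations of same-numbered libraries of different ages correlated at 0.012 to 0.177, all positive and above 0.1 in 1 of 9 pairs. Differently numbered libraries ran from -0.123 to 0.102. A weak shared part of same-numbered libraries is therefore possible, and a replicate block was among the alternatives.

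Genes given in full were the 4 largest called rises and falls per comparison, the C-type genes and the non-clustered genes averaging at least 10 TPM in a group; from each list up to 2 called rises and 2 falls per comparison could be named. Members and lists were chosen with earlier results of these data known. Alternatives were the pseudocount (0.1 and 5 TPM), the filter (none, mean of at least 5 TPM, and mean of at least 1 TPM, which was added after seeing the data), 2 rescalings, a replicate block, fits of only the groups compared, and each library left out.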

Additional observations from a re-analysis of the deposited data

Results flagged for a closer look

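For 6 protocadherins the change from P14 to P21 differed from the change from P7 to P14 by limma's test of the difference (adjusted p below 0.05), on the log2(TPM + 1) scale with the second step minus the first. Over all protocadherins 1 difference was positive and 5 negative, against 7.46% and 16.8% of all genes tested. Without P7 IP replicate 3 the count of negative differences was 10 of 65 protocadherins, against 3238 of all 19008 genes tested, and these shares were near each other. Among the 10 were 4 of 4 delta-1 genes in place of 1. Both steps share the P14 libraries.

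Pcdhgc5 differed by -2.13 ± 0.42 (adjusted p = 0.0053), having risen in the first step and not in the second. Pcdhac1 differed by -0.91 ± 0.21 (adjusted p = 0.0115) and Pcdhgc4 by -0.75 ± 0.17 (adjusted p = 0.00908), both with their highest libraries at P14. Pcdha4 differed by -0.85 ± 0.16 (adjusted p = 0.00405), its decrease falling in the second step. Pcdhgc3 differed by 0.60 ± 0.16 (adjusted p = 0.0246), since its first decrease was the larger, and this call did not hold when P14 IP replicate 1 (0.48, adjusted p = 0.11) was dropped, nor when P14 IP replicate 3 (0.62, adjusted p = 0.0599) was, nor without a filter (adjusted p = 0.0679). Pcdh9 differed by -0.80 ± 0.24 (adjusted p = 0.0331), a call lost without any 1 of the 3 P14 libraries, P21 IP replicate 1 or P21 IP replicate 2 (adjusted p = 0.0619 to 0.125), without a filter (adjusted p = 0.104) and under quantile normalisation (adjusted p = 0.0528).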

How the results depend on the processing

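Of 1664 values of named protocadherins recomputed under other settings, 1559 kept their direction and side of the threshold, 42 lost a call, 38 gained one and 25 changed sign. Of the 25, 20 were called neither before nor after, and 9 of these lay in the comparisons of ages. The other 5 had a call before or after, between P7 IP and P7 input: Pcdh10 (0.0137), Pcdhac2 (0.29) and Pcdhgc4 (0.30) under median-of-ratios scaling, and Pcdh17 (0.12) and Pcdhac1 (0.37) under quantile normalisation. The cause was not tested.

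Between P7 IP and P7 input, 5 protocadherins were higher and 17 lower under median-of-ratios scaling, 10 and 10 under quantile normalisation, and 11 were lower with a mean of at least 5 TPM. That filter leaves 21 protocadherins, of which 11 fell at P14 relative to P7, 13 at P21 relative to P14 and 14 at P21 relative to P7. Without a filter, which leaves 70 protocadherins, 11 fell at P21 relative to P14, against 2829 of all genes. There 0 second steps exceeded the first, against 961 of all genes. How many genes of the whole matrix these 2 filter settings leave is not given, so no shares are stated. Under median-of-ratios scaling 5 rose at P21 relative to P7, 2 at P21 relative to P14, and 2 second steps exceeded the first. Over all genes tested these counts were 5808, 2732 and 2247. The last pair was also 2 and 2 under quantile normalisation, against 2290 and 1976 over all genes tested. With only the groups compared, 1 rose at P21 relative to P14, against 1530 of all genes tested. With the replicate block, 5 rose at P21 relative to P7 and 3 second steps exceeded the first, against 5153 and 1323 of all genes tested. Under these rescalings and fits the share of protocadherins that rose, or rose more in the second step, lay below that of all genes. The block added 5 calls of named genes: Pcdhgc4 at P21 relative to P14 (adjusted p = 0.0371) and to P7 (0.0391), Pcdh7 at P21 relative to P7 (0.0328), and the second step relative to the first of Pcdh1 (0.0344) and Pcdhga11 (0.0452).

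With each library left out, the count between P7 IP and P7 input was 0 to 1 higher and 32 to 48 lower. It was 5 to 7 and 16 to 28 for P14 relative to P7, 0 to 2 and 10 to 21 for P21 relative to P14, 3 to 4 and 32 to 40 for P21 relative to P7, and 0 to 1 and 4 to 10 for the second step relative to the first. Of all 19008 genes tested, 2999 to 3570 were higher and 8648 to 9784 lower in IP. For P14 relative to P7 the counts were 4488 to 5111 and 3721 to 4373. For P21 relative to P14 they were 1128 to 1687 and 2685 to 3856. For P21 relative to P7 they were 4783 to 5149 and 5643 to 6161. For the second step they were 868 to 1361 and 2065 to 3338. The log2 ratio of summed TPM, P7 IP over P7 input, was 0.31 for alpha (-0.11 as deposited), 0.0699 for gamma (-0.34), -0.12 for beta (-0.53) and -0.20 for non-clustered genes (-0.61) under median-of-ratios scaling. An unknown depth leaves the precision of genes near 1 TPM, most beta genes among them, unstated.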
